A study of Mus musculus with 71 samples.

Results

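The comparison described here is that of terminal whole blood from HOCl-induced mice treated with the E07 antibody (12 mice) and from HOCl-induced mice treated with the D11 antibody (12 mice), across all genes measured. The 24 mice were taken by the group names in the labels, out of 71 mice in the series. The comparison and the gene lists below were chosen with earlier results of these data known, so the shares of lists called are descriptive. The study's methods describe female Balb/c AnNRj mice, 6 weeks old at the start, in which hypochlorous acid (HOCl) was injected into the skin of the back on 5 days a week for 6 weeks, a chemical model of systemic sclerosis. Both antibodies bind galectin-3, were built as human IgG1 with the LALA change that weakens Fc effector functions, and were injected under the skin at 20 mg/kg, beginning the day before induction and then every 5 days. For reference, 12 HOCl mice without antibody, of which 11 have values on the deposited log2-like scale, and 11 control mice that received PBS were used. The other groups of the series, HOCl mice labelled D06 (12) and BPR21 (12), entered the fit of all 6 groups. No group with an irrelevant IgG1 is labelled, and the groups were kept in separate cages, so that cage and treatment cannot be told apart. Each library is 1 mouse, and RNA was measured after poly A selection and depletion of globin transcripts.

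Galectin-3 is a lectin that binds sugar chains on cell surfaces and in the extracellular space, and the question put by the comparison is whether a pair of antibodies against the same protein left the same or different marks on blood transcripts. Whole blood RNA comes from more than leukocytes. Reticulocytes, the youngest red cells in the circulation, still carry messenger RNA and lose it together with their mitochondria and other organelles through autophagy and the ubiquitin system, while platelets carry RNA inherited from megakaryocytes. B cells are the most abundant blood cells that display MHC class II.

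The totals were alike, from 12696749 to 14474204 counts (median 13954729) in E07 mice and from 12295725 to 14929266 (median 13558719) in D11 mice, and the mean log2 totals differed by 0.031 (two-sided permutation test, 100000 resamples, p = 0.26). Size factors, computed here from the counts as the median of ratios to a mean library, were not alike. The mean was 1.28 ± 0.176 (SD, n = 12) in the E07 group and 0.969 ± 0.224 (SD, n = 12) in the D11 group, a log2 difference of 0.43 (permutation test, p = 0.00066). The share of all counts on the 117 genes of 6 red cell lists ran from 12.4% to 21.3% (median 15.7%) in E07 mice and from 13.4% to 27.8% (median 20.8%) in D11 mice, beside medians of 25.0% in HOCl and 16.1% in control mice, and the part of this share in the results was not tested. Ptprc, S100a8, Ppbp, Cd79a and Cd3e, which mark leukocytes as a whole, neutrophils, platelets, B cells and T cells, were counted in every library. Of 20 genes listed for cells outside blood, Pecam1 was counted in every library too (1499 to 3287 counts), and 12 had a median of at most 3 counts. Single libraries departed from this. E07 mouse 5 had 10286 counts of Alb and 826 of Apoa1, both made in liver, and D11 mouse 10 had 214 counts of the keratin gene Krt5 and 100653 of Hba-a1. On the deposited log2-like scale, the 4 measured genes of the list for cells outside blood averaged 10.36, 9.43 and 9.31 in E07 mice 5, 9 and 10. They averaged 9.84 and 10.22 in D11 mice 4 and 10, beside group medians of 7.96 in E07 and 8.10 in D11 mice. D11 mice 3 and 10 had the lowest size factors of the D11 group, 0.593 and 0.616.

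**Figure D1:**
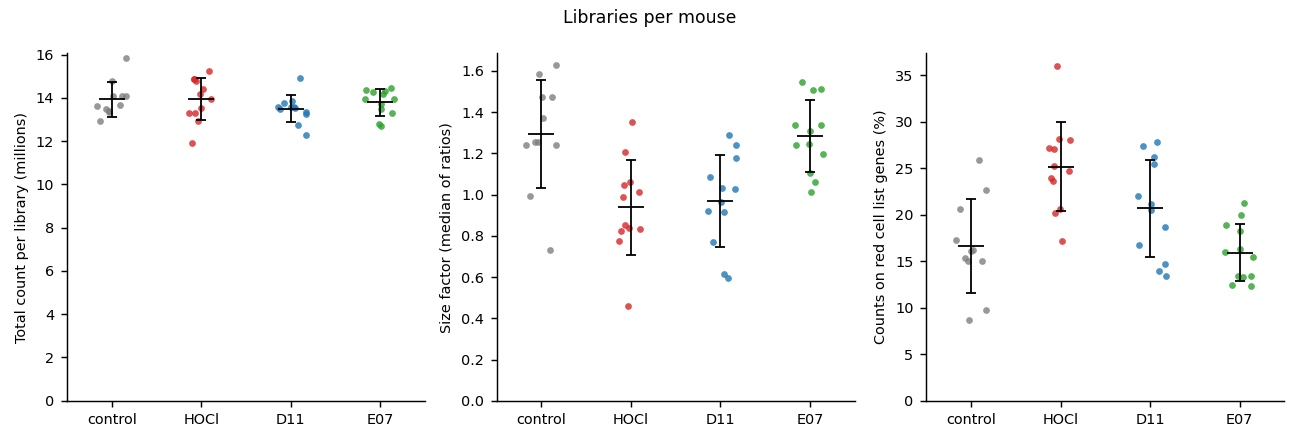
Total count, size factor and share of counts on the genes of the red cell lists, per mouse in 4 groups; points are mice and bars are the mean ± SD. Totals were alike (medians 13954729 in E07 and 13558719 in D11 mice), whereas size factors were higher in E07 mice (1.28 against 0.969) and the red cell share was higher in D11 mice (median 20.8% against 15.7%).

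On the deposited scale, named red cell, platelet and mitochondrial transcripts were lower, and named B cell and MHC class II transcripts higher, in E07 than in D11 mice. Of 10508 genes on the deposited log2-like scale (vst), 480 (4.57%) were called by limma under the study's thresholds, which ask for an FDR, the false discovery rate, no higher than 0.05 together with a 1.3-fold change or more. Of these, 449 (4.27%) were lower and 31 (0.295%) higher in E07 mice. The median log2 difference was -0.56 for the genes called lower and 0.42 for those called higher, and 2192 genes had an unadjusted p under 0.05. edgeR on the counts called 708 genes (6.74%), 80 higher and 628 lower, and 465 of the 480 genes were called in the same direction by both tools. The count was not stable to the mice and groups that entered the fit. It was 185 without E07 mouse 9, 244 without E07 mouse 4, 254 without E07 mouse 10, 255 without E07 mouse 8, 252 without D11 mouse 3 and 278 without D11 mouse 10, and it was 653 at the most, without D11 mouse 1. With the 6 groups of the series in 1 fit, limma called 0 genes (smallest FDR 0.0663), although all 480 kept their sign and an unadjusted p under 0.05, and 1746 genes had such a p. With counts scaled to each library's total in place of size factors, the median of all genes moved from 0.02 to 0.39 on the log2 scale and the calls became 4665 (44.4%), of which 4513 were higher (43%) and 152 lower (1.45%). Changes below are therefore also given relative to that median, and relative to it all 480 genes kept their sign. That was nearly fixed in advance, since a scaling moves all genes of a library by about the same amount. Values relative to the median therefore do not test the scaling, here or in the lists below. Without subtracting it, 476 of the 480 kept their sign, and 138 of the 449 lower and all 31 higher genes were called again. For the 31 higher genes this was also nearly fixed in advance. The scaling moved the median of all genes up to 0.39 and 43% of all genes were called higher, so their repeat does not test them.

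The genes with the largest decrease in E07 mice included known genes of red cell precursors. Apol11b, an apolipoprotein L gene (chromosome 15, 77518146 to 77527487, minus strand, GRCm39), had the largest. Its vst value ran from 8.22 to 11.57 (median 9.19) in E07 mice and from 8.58 to 14 (median 10.98) in D11 mice. The groups overlapped, with 5 D11 mice above every E07 mouse and 10 E07 mice below the D11 median. The mean difference was -1.70 (standard error 0.50, limma FDR 0.0395), and edgeR gave -2.34 (FDR 0.014). Among those next to it stood Trim10, Prxl2a, Epb42, Dhrs11, Cd59a, Car2, Glrx5, Acmsd and Cmas, with differences from -1.28 to -0.99. Prxl2a encodes a redox-active peroxiredoxin-like protein and Cd59a a surface inhibitor of the complement membrane attack complex. In all 12 genes with the largest decrease D11 mouse 3 was the highest of the D11 mice and the median of HOCl mice without antibody lay above that of D11 mice. Of the 12, 6 or 7 were called without any 1 of D11 mice 3, 5, 9, 10 or 12 or E07 mice 1, 2, 4, 7 or 10, 3 without E07 mouse 8 and 2 without E07 mouse 9. Cd59a was called whichever mouse was left out.

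Of 23 genes of the red cell membrane and its skeleton, 22 had a negative difference and 9 were called lower in E07 mice, against 4.27% of all genes, with a list median of -0.68. Epb42, which ties the anion exchanger to the membrane skeleton (chromosome 2, 120848372 to 120867553, minus strand), ran from 8.78 to 10.32 (median 9.38) in E07 and from 9.26 to 11.99 (median 10.51) in D11 mice. Every E07 mouse lay below the D11 median and 8 D11 mice exceeded all E07 mice, and the difference was -1.06 (standard error 0.28, limma FDR 0.0275). Trim10, an erythroid ubiquitin ligase gene (chromosome 17, 37180406 to 37188725, plus strand), ran from 10.54 to 12.78 (median 11.32) and from 11.31 to 14.66 (median 12.85), with 6 D11 mice above every E07 mouse (difference -1.28, standard error 0.35, limma FDR 0.0312). Tmod1, Rhd, Dmtn, Ermap, Aqp1 and Cldn13 were called too. The count of 9 was 1 without E07 mouse 8 or 9, 2 without D11 mouse 3 or 12 or E07 mice 2, 4, 7 or 10, 3 or 4 without D11 mice 4, 5, 8, 9 or 10 or E07 mouse 1, and 14 without D11 mice 1, 7 or 11 or E07 mouse 6. Slc4a1, the anion exchanger itself, differed by -0.99 but did not pass with a limma FDR of 0.0717, although edgeR gave an FDR of 0.037. Since no cell counts accompany the libraries, fewer cells of a type and less RNA per cell cannot be told apart here or in any result that follows.

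The starts of a pair of these genes are shown because both hold the 5 letters GATAA or TTATC, the reverse complement. These letters are the core that GATA factors recognise, and binding was not tested. The sequences are from RefSeq on GRCm38.p6, 250 bases before to 50 after the start, with GATAA or TTATC in capitals, and for Trim10 also CACCC or GGGTG, the core of KLF-type sites. Trim10 lies at chr17:36869324-36869623 on the plus strand and Epb42 at chr2:121036828-121037127 on the minus strand, both printed in the direction of the gene.
Trim10: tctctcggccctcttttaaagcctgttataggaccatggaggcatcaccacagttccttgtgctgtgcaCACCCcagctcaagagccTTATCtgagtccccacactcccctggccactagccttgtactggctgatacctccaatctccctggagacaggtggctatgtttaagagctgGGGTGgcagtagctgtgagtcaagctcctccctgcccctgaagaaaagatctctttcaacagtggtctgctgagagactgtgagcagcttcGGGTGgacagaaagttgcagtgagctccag
Epb42: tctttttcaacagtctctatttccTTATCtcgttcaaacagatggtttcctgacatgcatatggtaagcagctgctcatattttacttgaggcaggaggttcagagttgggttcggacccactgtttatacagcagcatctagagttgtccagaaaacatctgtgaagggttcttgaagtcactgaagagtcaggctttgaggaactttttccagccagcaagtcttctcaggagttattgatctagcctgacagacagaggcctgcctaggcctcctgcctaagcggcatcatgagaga
Among all 32851 promoters given there, 25.4% hold GATAA on either strand and 57.5% hold CACCC, and a match describes the letters only.

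**Figure D2:**
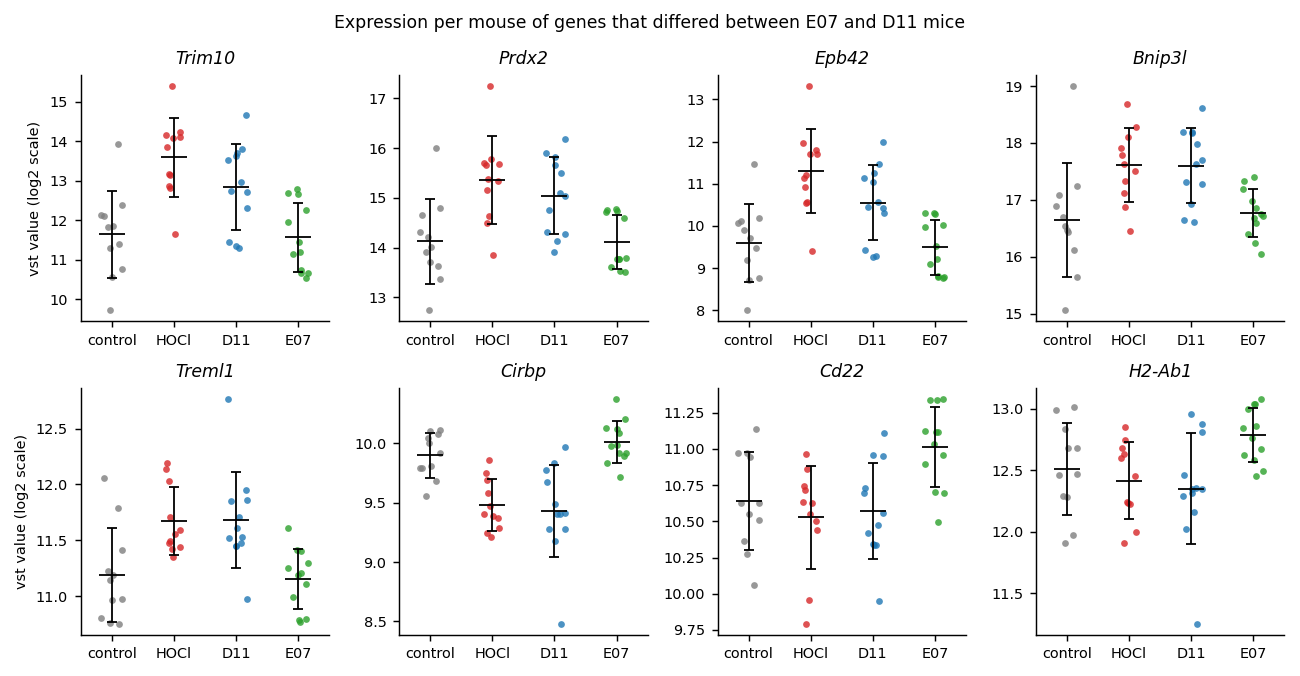
The vst value (log2 scale) of 8 genes in each control, HOCl, D11 and E07 mouse; points are mice and bars are the mean ± SD. Epb42 was below the D11 median in every E07 mouse, and Cirbp was above it in every E07 mouse, while the ranges of both groups overlapped in all panels.

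Of 18 erythroid transcription factor genes 7 were called lower, against 4.27% of all genes (median -0.39), among them Gata1 and Gfi1b, which red cell and megakaryocyte precursors share, and Lmo2 and Tal1, members of the complex that GATA1 joins. The vst value of Gata1 ran from 8.73 to 9.55 (median 9.21) in E07 and from 9.23 to 10.64 (median 9.65) in D11 mice. Of the D11 mice 9 lay above every E07 mouse (difference -0.54, standard error 0.12, limma FDR 0.0224), and the highest was D11 mouse 10. Klf1, the factor of late red cell genes, differed by -0.37 with a limma FDR of 0.0571. Among 14 heme synthesis genes, 2 were called, among them Glrx5, which serves the assembly of iron-sulfur clusters (difference -1.02, standard error 0.27, limma FDR 0.0266). Alas2, the first enzyme of the erythroid pathway, Urod and Fech, which inserts the iron, differed by -0.71, -0.80 and -0.76 without passing the FDR (0.0666, 0.0646 and 0.0642 in limma). Of 14 iron genes, 3 were called lower, the ferritin genes Fth1 (-0.68) and Ftl1 (-0.62) and Slc48a1 (-0.74), which carries heme across membranes, whereas Tfrc, the transferrin receptor, differed by -0.31 (limma FDR 0.556). Relative to all genes, the list medians under the 7 scalings tried stayed between -0.54 and -0.41 for the transcription factors, -0.43 and -0.27 for heme synthesis and -0.13 and -0.10 for iron. Among these scalings, vst values centred on each mouse's median give the same relative medians as vst values and so add no alternative, here or below. The transcription factor count was 2 without D11 mouse 3 or E07 mouse 4 or 9, 3 without D11 mouse 10 or E07 mouse 10 and 4 without E07 mouse 8. The heme count was 1 without E07 mouse 8 or 9 and 5 without D11 mice 1, 7 or 11 or E07 mouse 6, and the iron count was 1 without D11 mice 3, 4, 5, 8, 9, 10 or 12 or E07 mice 2, 4, 7, 8, 9, 10 or 11.

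Among 26 genes of reticulocyte maturation and ubiquitin remodelling 14 were called lower (median -0.73), and among 22 genes of the red cell cytosol 12 were (median -0.81), against 4.27% of all genes. The reticulocyte count was 6 without E07 mouse 9, 7 without E07 mice 4, 8 or 10, 8 without D11 mouse 3 and 9 without D11 mouse 5 or 10 or E07 mouse 7. The cytosol count was 4 without E07 mouse 9, 5 without D11 mouse 3 or E07 mice 4, 8 or 10, 6 without D11 mice 5, 9, 10 or 12 or E07 mouse 7, 7 without E07 mouse 1 or 2, and 18 at the most, without D11 mice 1, 7 or 11 or E07 mouse 6. Bnip3l encodes the receptor by which reticulocytes deliver mitochondria to autophagy. Its vst value ran from 16.04 to 17.40 (median 16.74) in E07 mice and from 16.61 to 18.62 (median 17.66) in D11 mice. All E07 mice lay below the D11 median and 7 D11 mice lay above every E07 mouse (difference -0.84, standard error 0.20, limma FDR 0.0232). The ubiquitin-like autophagy genes Gabarapl2 (-0.85) and Map1lc3b (-0.78), the polyubiquitin gene Ubb (-0.81), and Fbxo7 (-0.77) and Usp15 (-0.78), which attach and remove ubiquitin, were called as well. In the wider autophagy list 11 of 29 genes were called lower, against the same 4.27%, with a list median of -0.13. Lists may share genes, and these calls were not counted apart from those of the reticulocyte list. Pink1 and Becn1, which mark damaged mitochondria and start the autophagosome, were among the 11. The count lay between 4 and 7 without D11 mice 3, 5, 8, 9, 10 or 12 or E07 mice 1, 2, 4, 7, 8, 9 or 10. In the cytosol list Hagh, a glyoxalase, differed by -0.98, Prdx2, the abundant peroxidase of red cells, by -0.94, Gpx1 by -0.87 and Car2, carbonic anhydrase, by -1.03. Prdx2 ran from 13.50 to 14.77 (median 13.78) in E07 mice and from 13.91 to 16.18 (median 15.06) in D11 mice, with 7 D11 mice above all E07 mice (limma FDR 0.0248). Of 27 NRF2 and antioxidant genes, 7 were called lower, namely Prdx2, Gpx1, Cat, Gclm, Gsta4, Mgst3 and Gpx4, of which the first 3 also stand in the cytosol list. That count was 2 to 4 without D11 mice 3, 5, 9, 10 or 12 or E07 mice 1, 4, 7, 8, 9 or 10. With total-count scaling the difference of Gpx4 was 0.0057, which is -0.39 relative to all genes.

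Over the 6 red cell lists (membrane, transcription factors, heme, iron, reticulocyte and cytosol), 47 of 117 genes (40.2%) were called lower and none higher by limma, with a median of -0.62 and 85 genes at an unadjusted p under 0.05. edgeR called 66 of them lower, against 5.98% of all genes tested. With total-count scaling 80 of the 117 differences were still negative (median -0.32) and 37 were positive, and 1 gene changed sign relative to the median of all genes. The count depended on single mice. It was 15 without E07 mouse 9, 19 without E07 mouse 4 or 8, 20 without E07 mouse 10 or D11 mouse 3, 24 without D11 mouse 10, 25 without E07 mouse 7, 26 without D11 mouse 5 or 12, 27 without E07 mouse 2 and 29 without D11 mouse 9. With the mean of the membrane list as a covariate the median of the 117 genes was -0.04 and limma called 0 of all genes (1036 at an unadjusted p under 0.05). The covariate was made from 23 of these 117 genes in the same mice, and their level differed between the groups. A median near 0 was thus largely set by the fit. Values with this covariate, here and below, cannot part antibody from red cell content.

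Of 81 nuclear genes of oxidative phosphorylation 12 were called lower, against 4.27% of all genes, with a median of -0.10. Cox6c (-0.68), Atp5l (-0.64), Cox7a2 (-0.63) and Ndufa1 (-0.62), small subunits of complex IV, ATP synthase and complex I, had the largest differences, and 8 further subunit genes lay between -0.52 and -0.42. Of 13 genes of the mitochondrial genome, mt-Co1 was called lower (-0.49) and all 13 differences were negative on the vst scale. With total-count scaling the direction did not hold. The nuclear median was then 0.24, below the 0.39 of all genes. Of the 81 nuclear genes 25 were called higher and 0 lower, against 43% and 1.45% of all genes under this scaling. The mitochondrial median was -0.01, with 7 of 13 differences negative and 0 genes called. Relative to all genes, the medians of the nuclear list stayed between -0.17 and -0.12 and those of the mitochondrial list between -0.45 and -0.19 under the scalings tried. Without E07 mouse 9, 3 nuclear genes were called, 5 without D11 mouse 3, 6 without E07 mouse 8 or 10 and 7 without E07 mouse 4 or D11 mouse 5 or 9.

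All 32 genes of the platelet and megakaryocyte list had a negative difference, 18 (56.2%) were called lower, against 4.27% of all genes, and the median was -0.47. edgeR called 21. Rgs18, a regulator of G protein signals in platelets, ran from 12.37 to 13.34 (median 12.67) in E07 mice and from 12.67 to 14.18 (median 13.31) in D11 mice. Of the E07 mice 11 lay below the D11 median and 5 D11 mice lay above every E07 mouse (difference -0.71, standard error 0.14, limma FDR 0.0211). P2ry12, the ADP receptor, differed by -0.70 and Ppbp, the most abundant platelet chemokine precursor, by -0.65, both with a limma FDR of 0.0211. Pf4, platelet factor 4, ran from 13.69 to 14.56 (median 14.17) in E07 and from 14.05 to 15.98 (median 14.59) in D11 mice, so that all E07 mice lay below the D11 median (difference -0.59, standard error 0.15, limma FDR 0.0232). Genes of the collagen and podoplanin receptors, Gp6 (-0.54) and Clec1b (-0.57), of von Willebrand factor (Vwf, -0.58) and of the alpha granule protein Treml1 (-0.53) were called, whereas those of the fibrinogen receptor chains were not, with Itga2b at -0.41 (limma FDR 0.101). D11 mouse 10 was the highest D11 mouse in each of Rgs18, P2ry12, Ppbp, Pf4, Gp6, Clec1b, Vwf, Treml1 and Itga2b. The number of platelet genes called was 14 without that mouse, 11 without D11 mouse 3, 11 without E07 mouse 4 and 9 without E07 mouse 9. With total-count scaling 26 of the 32 differences were negative and limma called 0 platelet genes lower (29 had an unadjusted p under 0.05 on the vst scale), while relative to all genes the median stayed between -0.60 and -0.49 under the scalings tried. With the membrane list as a covariate the platelet median was -0.32.

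The start of Pf4 is shown as that of an abundant platelet chemokine, with GATAA in capitals, at chr5:90772185-90772484 on the plus strand. The letters stand after the annotated start of the transcript.
Pf4: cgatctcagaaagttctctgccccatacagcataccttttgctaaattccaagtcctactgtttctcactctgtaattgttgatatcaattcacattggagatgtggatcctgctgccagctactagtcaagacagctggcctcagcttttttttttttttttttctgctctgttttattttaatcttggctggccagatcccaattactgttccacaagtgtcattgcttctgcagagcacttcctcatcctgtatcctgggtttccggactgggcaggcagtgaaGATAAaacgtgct

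Of 11 genes of class II presentation 6 (54.5%) were called higher, against 0.295% of all genes, and all 11 differences were positive (median 0.40). They were the chains H2-Aa (0.42), H2-Ab1 (0.44) and H2-Eb1 (0.45), the peptide loading gene H2-DMb2 (0.47), the invariant chain Cd74 (0.41) and Ciita (0.40), the coactivator that switches the class II genes on. H2-Ab1 ran from 12.45 to 13.08 (median 12.80) in E07 mice and from 11.25 to 12.96 (median 12.35) in D11 mice. Every E07 mouse lay above the D11 median, and 8 D11 mice lay below every E07 mouse, with the lowest value in D11 mouse 12 (limma FDR 0.0477, edgeR FDR 0.055). Among 24 B cell genes, 4 were called higher and all 24 differences were positive (median 0.29). Ighd, the heavy chain of IgD on naive B cells, ran from 12.15 to 13.12 (median 12.66) in E07 and from 11.19 to 12.80 (median 12.20) in D11 mice, with 6 D11 mice below every E07 mouse (difference 0.52, standard error 0.14, limma FDR 0.0288). Cd22, an inhibitory receptor for sialic acid, differed by 0.44 (limma FDR 0.0268), Cd79b, a signalling chain of the B cell receptor, by 0.42 (0.0429) and Tnfrsf13c, the BAFF receptor, by 0.38 (0.043). Ighm (0.26) and Ms4a1 (0.19) did not pass. Siglecg, a further sialic acid receptor of B cells, and Icosl, the ligand of the T cell costimulator ICOS, stand in neither list and were called at 0.44 and 0.51.

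The B cell and class II calls depended on single mice. D11 mouse 12 was the lowest D11 mouse in 8 of the 12 genes with the largest increase, and without it 0 class II genes and 2 B cell genes were called by limma. No class II gene was called without any 1 of D11 mice 3, 4, 5, 6, 9 and 12 or E07 mice 3, 4, 5, 7, 8, 9, 10 and 11, although 9 of the 11 had an unadjusted p under 0.05 with all mice and edgeR called 5, against 0.762% of all genes. The count was 2 without D11 mouse 10 and 1 without D11 mouse 11. The B cell count was 0 without E07 mouse 9 or 10, 2 without D11 mice 3, 4, 5, 6, 9, 10, 11 or 12 or E07 mice 3, 4, 7, 8 or 11, 7 without D11 mouse 8 or E07 mice 6 or 12, and 8 without D11 mice 1 or 2. Relative to all genes the medians stayed between 0.38 and 0.45 for class II and between 0.27 and 0.33 for B cells under the scalings tried, and they were 0.33 and 0.25 with the membrane list as a covariate.

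The start of H2-Aa is shown as that of a class II chain, at chr17:34287774-34288073 on the minus strand and printed in the direction of the gene, with CCAAT or its reverse complement ATTGG, the Y box core of class II promoters, in capitals.
H2-Aa: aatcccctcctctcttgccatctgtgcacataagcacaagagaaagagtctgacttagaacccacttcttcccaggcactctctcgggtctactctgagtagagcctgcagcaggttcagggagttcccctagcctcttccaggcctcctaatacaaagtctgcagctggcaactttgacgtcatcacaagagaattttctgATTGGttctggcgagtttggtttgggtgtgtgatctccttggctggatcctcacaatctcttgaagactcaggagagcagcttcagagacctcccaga
CCAAT stands on either strand in 37.4% of the 32851 promoters.

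Cirbp, the cold-inducible RNA-binding protein, had the largest increase of the genes called (chromosome 10, 79997069 to 80008626, plus strand). Its vst value ran from 9.71 to 10.37 (median 9.98) in E07 mice and from 8.48 to 9.96 (median 9.41) in D11 mice, beside medians of 9.41 in HOCl and 9.92 in control mice. Every E07 mouse lay above the D11 median and 9 D11 mice lay below every E07 mouse (difference 0.58, standard error 0.12, limma FDR 0.0211). Cirbp, Icosl and Cacna1i, a calcium channel gene, were called whichever of the 24 mice was left out. The others of the 12 with the largest increase were Tnfaip8l1, Cenps and Ighv1-67, of which none was called by edgeR (FDR 0.116, 0.0898 and 0.167).

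Interferon, immediate early and mitotic genes held a few calls each, 9.3%, 13% and 14.3% of their lists, against 4.27% of all genes called lower. Of 43 genes stimulated by type I interferon 4 were called lower, namely Isg15 (-0.85), Irf7 (-0.81), Ube2l6 (-0.75) and Ifit1 (-0.53), and the list median was -0.06. Ube2l6 also belongs to the reticulocyte list. Isg15, a ubiquitin-like protein, ran from 10.98 to 12.25 (median 11.36) in E07 mice and from 11.08 to 13.30 (median 12.30) in D11 mice, and the highest D11 mouse was again D11 mouse 3 (limma FDR 0.0232). Of 23 immediate early genes Fos (-0.88), Ppp1r15a (-0.68) and Dusp1 (-0.67) were called lower. Fos, a subunit of the AP-1 factor, ran from 6.76 to 8.61 (median 7.66) in E07 and from 7.48 to 10.27 (median 8.49) in D11 mice, with 5 D11 mice above all E07 mice (limma FDR 0.024). Of 21 genes of mitosis and S phase Ube2c (-0.98), Nusap1 (-0.96) and Ccna2 (-0.59) were called lower with a list median of 0.01, and Mki67 differed by -0.58 (limma FDR 0.101). The interferon count was 2 without D11 mice 3, 8, 10 or 12 or E07 mice 4, 8, 9, 10 or 11, 6 without D11 mouse 7 and 7 without D11 mouse 1 or E07 mouse 6, while that of mitosis was 0 without D11 mouse 3 or 5 or E07 mice 4, 8, 9 or 10 1 without D11 mouse 10 or E07 mouse 7 and 5 without D11 mouse 11. The median of the mitosis list changed sign with the scaling, between -0.01 and 0.00065 relative to all genes.

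Leukocyte lists other than that of B cells held no call. Gathered here are the 13 lists in which limma called no member. Among them are those of T cells, NK cells, monocytes, neutrophils, eosinophils, plasma cells, dendritic cells, MHC class I, Fc receptors and the TGF-beta pathway. Limma and edgeR called 0 of their 237 genes, against 4.57% and 6.74% of all genes. Of the 237, 24 had an unadjusted p under 0.05 in limma, against 2192 of all 10508 genes. The medians of these lists lay between -0.10 and 0.09 relative to all genes. Of 83 ribosomal protein genes 2 (2.41%) were called, against 4.27% of all genes called lower, Rpl41 (-0.60) and Rplp0 (-0.46), with a list median of -0.02. Among the other lists, 1 of 36 proteasome genes (Psmd4, -0.53), 2 of 21 glycolysis genes (Slc2a3, -0.41, and Hk1, -0.40), 2 of 53 translation initiation genes (Eif5, -0.77, and Eif1, -0.49), 1 of 25 endoplasmic reticulum stress genes (Atf4, -0.39), 1 of 19 chaperone genes (Dnajb1, -0.51), 1 of 14 interferon-induced GTPase genes (Igtp, -0.44) and 1 of 17 chemokine receptor genes (Ackr1, -0.56) were called lower. The shares of the proteasome (2.78%), translation (3.77%) and endoplasmic reticulum (4%) lists lay below that of all genes, and the others, of 1 or 2 calls each, lay between 5.26% and 9.52%. Of 4 measured genes of cells outside blood, Fabp4 (-0.54), a fatty acid carrier, was called lower. Of 9607 genes in no list, 360 were called (3.75%, against 4.57% of all genes in either direction), 21 higher and 339 lower.

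**Figure D3:**
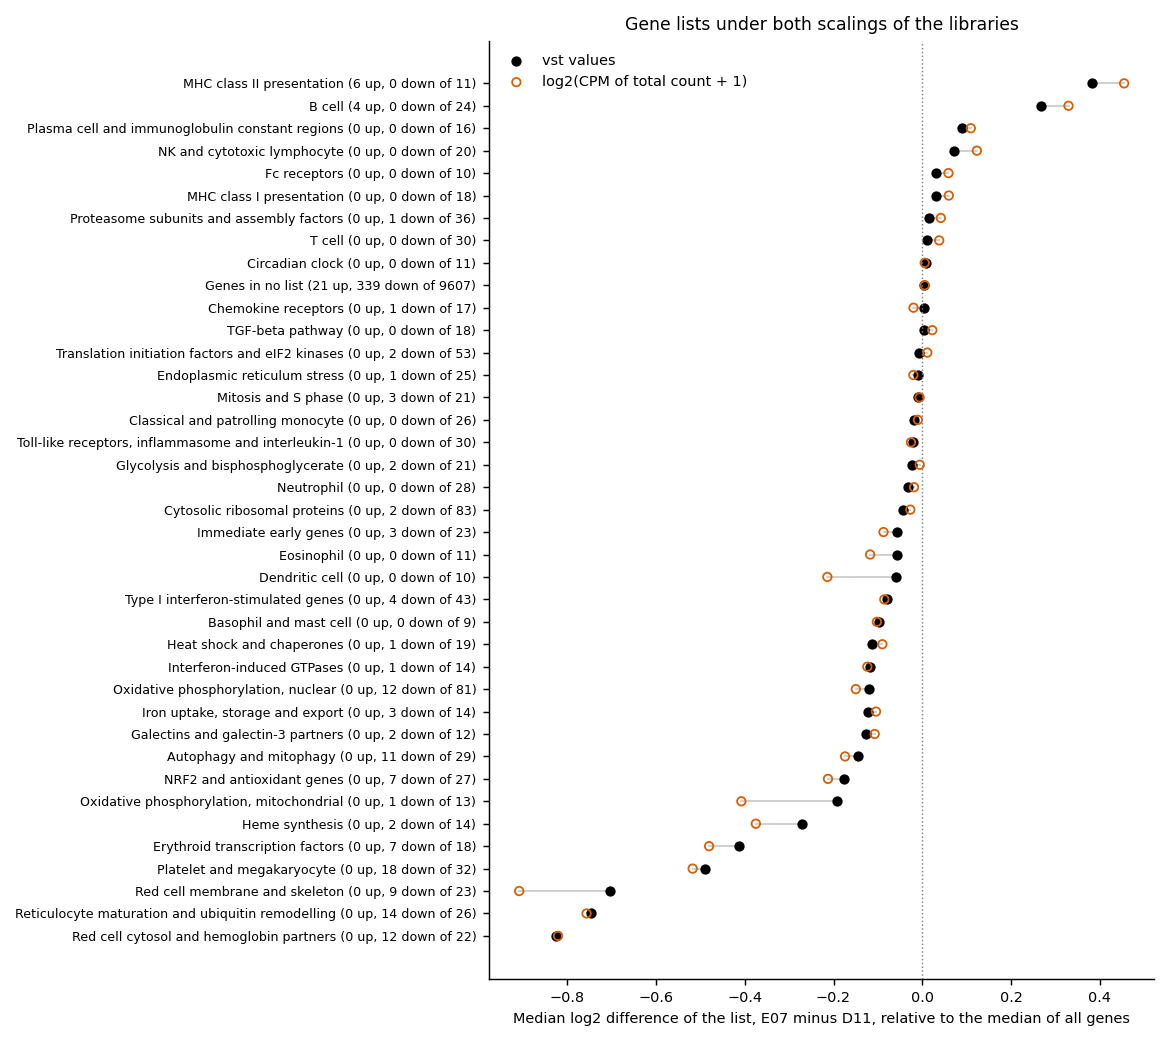
Median log2 difference (E07 minus D11) of each gene list relative to the median of all genes, on vst values (filled) and on CPM of the total count (open); the numbers called higher and lower of those measured stand beside each name. Class II and B cell lists lie at the top (0.38 and 0.27 relative to all genes on vst values), red cell cytosol, reticulocyte, membrane and platelet lists at the bottom, under both scalings.

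Beyond the genes with vst values, edgeR tested 2675 genes of the count table and called 116 (4.34%), 112 lower (4.19%) and 4 higher (0.15%). Colq, which encodes the collagen tail of acetylcholinesterase, was the gene with the largest increase among them, with 16 to 81 counts (median 47) in E07 mice and 4 to 40 (median 12.5) in D11 mice (log2 difference 1.29, edgeR FDR 0.0196).

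The gene of the target did not pass the test. Lgals3, which encodes galectin-3 (chromosome 14, 47605208 to 47623624, plus strand), ran from 10.43 to 11.38 (median 10.90) in E07 mice and from 10.49 to 11.32 (median 10.83) in D11 mice. The ranges nearly coincided and the difference was 0.01 (standard error 0.11, limma FDR 0.973), or 0.02 relative to all genes with total-count scaling. Of 12 galectins and galectin-3 partners, Bsg (-0.74) and Lamp2 (-0.43), both membrane glycoproteins, were called lower (16.7%, against 4.27% of all genes), while Lgals9 (-0.09) and Lgals3bp (-0.21) were not. App, Scarb1, Mat2a, Ostc and Ccr3, which were called by limma between D11 and HOCl mice, did not pass between the antibodies. App differed by 0.05, Scarb1 by -0.05, Mat2a by -0.18, Ostc by -0.10 and the eosinophil chemokine receptor Ccr3 by -0.22, with limma FDRs of 0.838, 0.84, 0.191, 0.421 and 0.545. Against the same HOCl mice, App differed by -0.70 in E07 and by -0.75 in D11 mice, and Ccr3 by 0.67 and 0.90. These paired values share the HOCl mice.

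The genes that parted the antibodies were set beside the comparison of HOCl with control mice, which shares no mouse with it. In that comparison 521 genes (4.96%) were called, 503 higher (4.79%) and 18 lower (0.171%). Of the 480 genes called between E07 and D11, 247 were called there too, 51.5% of the 480 and 47.4% of the 521. All but 1 of the 247 were lower in E07 than D11 mice and higher in HOCl than control mice, and the exception, Cirbp, was higher in E07 and lower in HOCl mice. Of the 449 genes lower in E07 mice 448 had a positive difference between HOCl and control mice, with Pcnp as the exception, and their median was 0.59 against -0.02 for all genes. Of the 31 genes higher in E07 mice 24 had a negative difference, with a median of -0.10. Trim10 differed by 1.95 (limma FDR 0.00497) and Cirbp by -0.42 (0.00658) between HOCl and control mice, whereas Ighd (-0.13) and H2-Ab1 (-0.09) did not pass. Pcnp, a nuclear protein gene, ran from 8.77 to 9.27 (median 8.96) in E07 mice and from 9.25 to 9.80 (median 9.38) in D11 mice, so that 10 D11 mice lay above every E07 mouse, a number that no called gene exceeded (difference -0.41, standard error 0.07, limma FDR 0.0153), beside medians of 9.01 in HOCl and 9.03 in control mice.

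**Figure D4:**
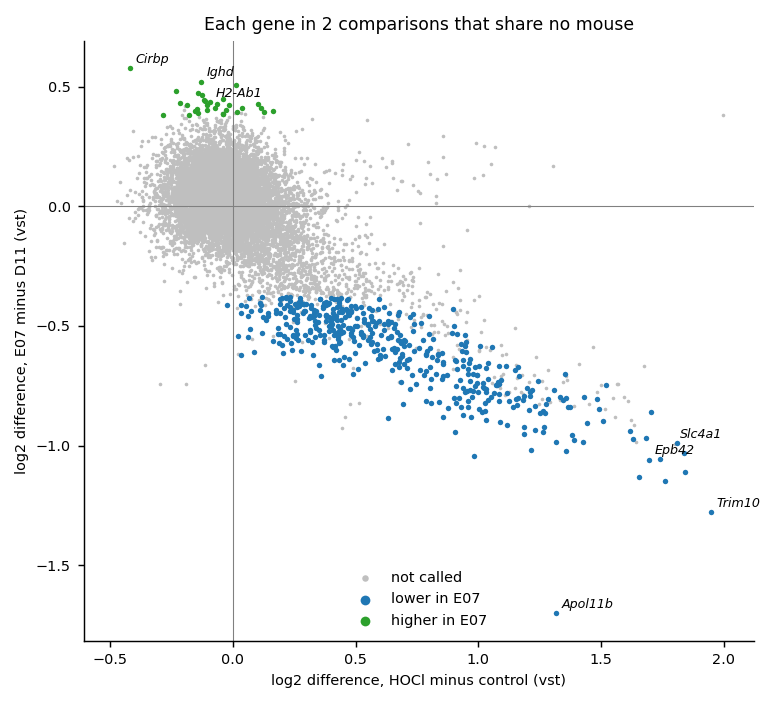
Log2 difference of E07 minus D11 mice (vertical) against that of HOCl minus control mice (horizontal) for each gene, on vst values; coloured points were called between E07 and D11. Of the 449 genes lower in E07 mice, 448 lie to the right of 0.

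Set against HOCl mice without antibody, the red cell lists gave a median difference of -0.93 in E07 mice, with 82 of 117 genes called lower against 7.01% of all genes in that direction and 7.89% in either. In D11 mice the median was -0.31 and limma called 0 of the 117 genes, of 6 called among all genes (0.0571%), 3 higher (0.0285%) and 3 lower (0.0285%). For the platelet list the medians were -0.47 with 21 genes called and 0.05 with 0, for the B cell list 0.41 with 14 called higher (0.876% of all genes) and 0.09 with 0, and for class II 0.37 with 4 and -0.06 with 0. Against control mice, limma called 1 gene in E07 (0.00952%) and 8 in D11 mice (0.0761%), all higher than in control mice. The medians of the red cell lists were -0.05 and 0.54 there, and those of the platelet list -0.02 and 0.44. The comparisons with HOCl mice share the HOCl mice and those with control mice the control mice, so the medians are given side by side and the test of their difference is the one between E07 and D11 described above.

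The spread was wider among D11 mice. The SD was larger in D11 mice for 8161 genes (77.7%), with a median ratio of 1.31, and for 435 of the 449 genes called lower and 30 of the 31 called higher. The E07 and D11 mice overlapped in every called gene. In the genes called lower, a median of 7 D11 mice lay above every E07 mouse and a median of 12 E07 mice lay below the D11 median. D11 mouse 10 was the highest D11 mouse in 214 and D11 mouse 3 in 198 of the 449 genes called lower, and D11 mice 2, 11, 1 and 7 were the lowest in 115, 109, 97 and 90 of them. The mean vst value of the red cell membrane list ran from 8.65 to 9.89 (median 8.99) in E07 mice and from 8.97 to 10.99 (median 9.83) in D11 mice, that of the platelet list from 11.01 to 11.77 (median 11.40) and from 11.29 to 12.75 (median 11.73), and that of the class II list from 11.10 to 11.69 (median 11.42) and from 10.24 to 11.50 (median 11.01). Not every D11 mouse was high in red cell and platelet genes together. D11 mouse 11 had the lowest red cell membrane mean of its group and D11 mouse 2 the lowest platelet mean. Whichever mouse was left out, 161 of the 480 genes stayed called.

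**Figure D5:**
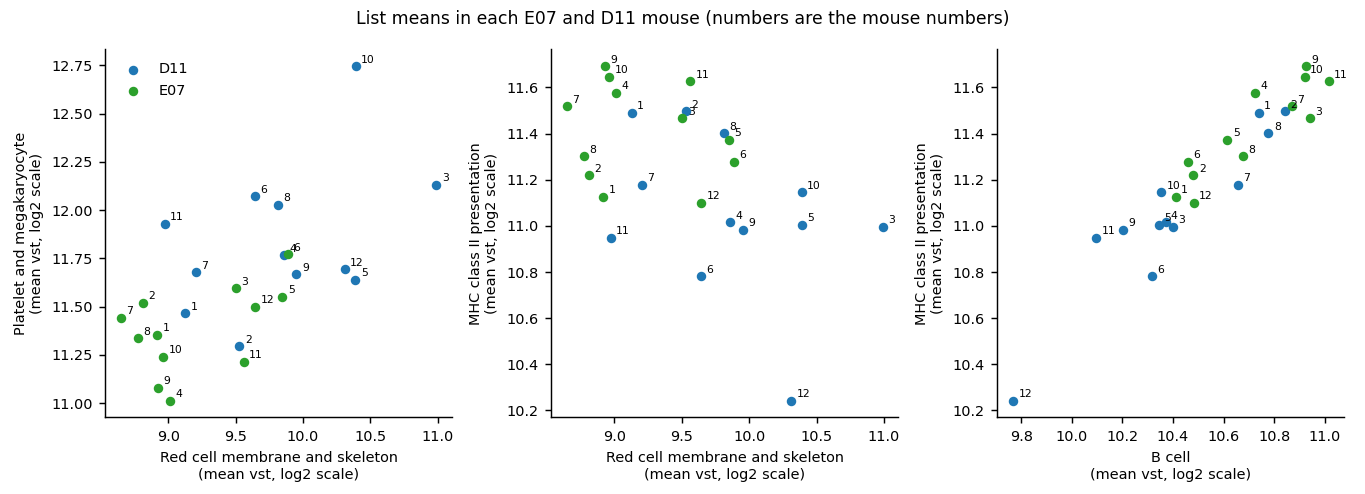
Mean vst value (log2 scale) of gene lists in each E07 and D11 mouse, with mouse numbers: platelet against red cell membrane list, MHC class II against red cell membrane list, and MHC class II against B cell list. D11 mouse 3 is the highest for the membrane list (10.99), D11 mouse 10 for the platelet list (12.75) and D11 mouse 12 the lowest for the class II list (10.24).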

How the data were processed

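Each library is terminal whole blood RNA of 1 mouse, and groups were taken from the labels. The strand-specific reads were aligned by the authors to mm39, and the labels name cutadapt, STAR, Picard, SAMtools, featureCounts and DESeq2 with no versions. The authors deposited raw read counts of 55416 genes in 71 mice and log2-like variance stabilised (vst) values of 10508 genes, immunoglobulin segments among them, in 70 mice. HOCl mouse 8 has counts only. By symbol or annotation name, 10503 genes were paired, and 5 with a repeated symbol were not.

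E07 and D11 mice were compared on the deposited vst values with limma 3.58.1 in R 4.3.3, with those groups only in the fit. A gene was called at a Benjamini-Hochberg FDR of at most 0.05 over all genes and a fold change of at least 1.3. Counts were tested with edgeR 4.0.16 (quasi-likelihood, TMM) and DESeq2 1.42.0, and genes outside the vst table with edgeR, named at a mean of at least 10 counts. Total-count scaling used log2 of CPM plus 1. Size factors were the median of ratios. Covariate fits used the mean z-score of the red cell membrane list. Library values were compared by two-sided permutation tests with 100000 resamples. Each script for tests across genes was tested on simulated data.

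Named genes were the 12 with the largest fold change in each direction, the 5 in each direction outside the vst table, members of 39 gene lists, Lgals3 and genes the study lists. The comparison, lists and named genes were chosen with earlier results of these data known, and Pcnp, the mice singled out and the 161 genes called without any 1 mouse were chosen after their values were seen. Gene positions are from GENCODE vM39 on GRCm39, promoters from RefSeq on GRCm38.p6, and starts of Slc4a1, Ighd, Cd79b and H2-Ab1 were not analysed here. Some genes are not reported here. Depth was 12295725 to 14929266 counts per E07 or D11 library. Labels name the mice by number but give no pairing. Alternatives covered other tests, scalings, pseudocounts, filters, samples in the fit, a covariate, a replicate block and each mouse left out.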

Additional observations from a re-analysis of the deposited data

Results flagged for a closer look

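Genes of the count table that have no vst value were tested apart. edgeR called 116 of 2675 such genes between E07 and D11 mice (4.34%), a smaller share than the 6.74% it called of the genes with vst values, and 121 with DESeq2 size factors in place of TMM. Of these, 51 were long noncoding RNAs, 42 were pseudogenes out of 600 tested, 15 were protein-coding, 2 were miRNA genes, 2 were mitochondrial ribosomal RNAs, 1 was of the class TEC and 3 were not in the annotation. Reads of pseudogenes can be shared with their parent genes, so those values are uncertain.

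Both mitochondrial ribosomal RNAs were among the genes called lower. The CPM of mt-Rnr2, the large one, ran from 27502 to 41863 (median 35046) in E07 mice and from 34590 to 56069 (median 48244) in D11 mice, with an edgeR log2 difference of -0.83 (FDR 0.011). That of mt-Rnr1, the small one, ran from 15184 to 24714 (median 21549) and from 20871 to 34149 (median 26743), with a difference of -0.81 (edgeR FDR 0.011). The groups overlapped in both. Together they held a median of 5.67% of counts in E07, 7.57% in D11, 6.05% in HOCl and 5.28% in control mice. CPM and these shares are scaled to each library's total, whereas edgeR used TMM. Effective TMM library sizes over the genes with vst values were higher in E07 mice by 0.42 on the log2 scale. The edgeR differences include that scaling, and the medians of CPM and of the shares part by less. The libraries were selected for poly A, and the part of that step in these values was not tested.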

How the results depend on the processing

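The count of genes that differ between E07 and D11 mice, 480, became 845 with DESeq2, 730 with edgeR and DESeq2 size factors, 817 with edgeR and a filter over all genes, 1464 with no filter, 270 with 4 groups in the fit, 0 with 6 groups (smallest limma FDR 0.0663, 1746 genes at an unadjusted p under 0.05), 0 with the red cell covariate (smallest limma FDR 0.186, 1036 genes at such a p), 4665 with CPM of the total count, 4583 with a pseudocount of 0.5 and 3155 without red cell counts in the total. edgeR and DESeq2 on the 2 groups called 708 and 845. In the fit of 6 groups the median standard error of the 480 genes was 0.173, against 0.142 with the 2 groups, and the cause was not tested. Leaving out each mouse in turn gave 185 (without E07 mouse 9) to 653 (without D11 mouse 1).

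Total-count scaling turned 4 of the 74 called genes that were followed, with values at pseudocounts of 1 and 0.5 of 0.00029 and 0.00030 for Calm3, 0.018 and 0.018 for Srgn, 0.013 and 0.013 for Rap1b and 0.0057 and 0.0057 for Gpx4. Relative to the median of all genes, 0.39, all 4 stayed negative. Of the 74 genes, edgeR called 70, DESeq2 72, the 4-group fit 36 and the fits without 1 mouse 26 to 74 in the same direction.

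Mouse numbers are shared by both groups. Deviations of same-numbered mice correlated at 0.069 on average (-0.12 to 0.30), 4 of 12 pairs were over 0.1, and 1 E07 mouse correlated best with its own number, so that the numbers give no pairing. With the number as a replicate block limma called 557 genes and edgeR 643. The edgeR block and the list counts in other fits and without single mice were added after seeing the data. Depth leaves genes of few counts untested, and no cell counts were used here.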
